A study of Mus musculus with 3 samples.

Results

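The autophagy and mitophagy machinery was read in gastrocnemius, a mostly fast-twitch calf muscle, of mice in which a form of Akt had been switched on for 24 h or 48 h. The machinery was taken as a list of 40 gene symbols, and its members were all probe sets that the platform annotation gives to one of them alone. This gave 86 probe sets of 37 genes, out of 34945 probe sets of 18193 genes with a single gene. Bnip3l was listed only on probe sets shared with its pseudogene, Vps34 is an older name of Pik3c3, and Optn was not analysed here. All 37 genes had at least 1 probe set in the brighter part of the arrays (a mean rank of 0.5 or more), 66 probe sets in all. The 20 dimmer ones, of 18 of the genes, read from 0.147 to 26.1 and are described no further unless named.

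Muscle was compared on 3 Affymetrix Mouse 430 2.0 arrays, 1 after 24 h of oil and the others after 24 h or 48 h of tamoxifen. Each array held RNA pooled from 3 to 4 mice. Mice of every group, the oil control included, were labelled Akt_Cre transgenic on a C57BL/CD1 background. Their transgene, restricted to skeletal muscle, codes for Akt fused to the hormone-binding part of the oestrogen receptor, a protein that tamoxifen stabilises per the labels. The promoter that drives it and the role of Cre are not given in the sources used here. No 48 h oil array and no tamoxifen array without the fusion were analysed, so tamoxifen itself and Akt activity cannot be told apart at either time, and at 48 h time cannot be told apart from them. Ages and sexes are not given in the sources used here.

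Autophagy encloses cytoplasm in a double membrane and delivers it to the lysosome. The ULK kinase complex starts it, the class III PI3-kinase complex marks the site with a lipid, and ubiquitin-like enzymes attach proteins of the Atg8 family (LC3 and GABARAP) to the growing membrane, where receptors such as p62 and BNIP3 bind their cargo. In skeletal muscle the pathway is active in fasting and wasting. Akt restrains it, acutely through mTORC1 and at the level of transcription through FoxO factors.

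Gabarapl1, Map1lc3b and Bnip3 stood near 2-fold below oil after 48 h, while other Atg8 genes did not. The 250 bases before the annotated transcription start are printed for these genes, for Pik3r4, which was also 2-fold lower, and for Gabarap and Gabarapl2, family members that stayed nearer to oil. Bnip3 was added to this set after its values were seen. Each runs 5′ to 3′ on the gene's own strand, and comes from the RefSeq promoter table. A single window is printed for each gene, although some members have several there. Capitals mark matches to the motifs described after them.
Gabarapl1 (GRCm38.p6, chr6:129532942-129533191, plus strand): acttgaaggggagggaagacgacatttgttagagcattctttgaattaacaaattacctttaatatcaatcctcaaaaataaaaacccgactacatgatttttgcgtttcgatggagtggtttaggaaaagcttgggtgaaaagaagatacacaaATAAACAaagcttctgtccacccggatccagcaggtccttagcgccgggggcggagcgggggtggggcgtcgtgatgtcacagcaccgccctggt
Map1lc3b (GRCm38.p6, chr8:121590188-121590437, plus strand): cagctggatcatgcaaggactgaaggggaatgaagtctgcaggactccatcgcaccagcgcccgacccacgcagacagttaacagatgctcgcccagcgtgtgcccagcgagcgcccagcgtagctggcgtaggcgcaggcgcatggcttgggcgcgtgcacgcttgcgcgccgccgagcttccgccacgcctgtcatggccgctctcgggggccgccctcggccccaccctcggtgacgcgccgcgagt
Bnip3 (GRCm38.p6, chr7:138909507-138909756, minus strand): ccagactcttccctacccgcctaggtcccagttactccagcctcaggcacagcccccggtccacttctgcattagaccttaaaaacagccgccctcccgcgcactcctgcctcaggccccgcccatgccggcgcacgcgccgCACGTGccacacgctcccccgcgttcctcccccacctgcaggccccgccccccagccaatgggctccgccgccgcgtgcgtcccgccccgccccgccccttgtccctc
Pik3r4 (GRCm38.p6, chr9:105642745-105642994, plus strand): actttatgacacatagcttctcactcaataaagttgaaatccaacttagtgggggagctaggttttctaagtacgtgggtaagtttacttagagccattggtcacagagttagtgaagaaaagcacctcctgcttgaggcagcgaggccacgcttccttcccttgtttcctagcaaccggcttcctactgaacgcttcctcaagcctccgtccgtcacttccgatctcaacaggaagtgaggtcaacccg
Gabarap (GRCm38.p6, chr11:69991120-69991369, plus strand): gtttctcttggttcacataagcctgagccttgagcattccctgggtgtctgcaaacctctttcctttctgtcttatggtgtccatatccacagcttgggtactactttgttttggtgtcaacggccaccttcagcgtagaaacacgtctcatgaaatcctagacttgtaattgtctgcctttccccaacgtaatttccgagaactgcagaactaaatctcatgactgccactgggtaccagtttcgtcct
Gabarapl2 (GRCm38.p6, chr8:111940453-111940702, plus strand): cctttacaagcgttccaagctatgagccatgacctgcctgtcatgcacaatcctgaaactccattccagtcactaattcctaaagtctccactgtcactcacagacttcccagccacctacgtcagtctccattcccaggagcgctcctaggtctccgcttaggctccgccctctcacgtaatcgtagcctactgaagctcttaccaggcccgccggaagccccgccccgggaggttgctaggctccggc

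The promoter table held 38 windows of 32 of the 40 members, none of them of Map1lc3a, Rb1cc1, Becn1, Pik3c3, Atg12, Atg16l1 or Bnip3l. Both strands were searched for the FoxO element GTAAACA, which was in 0 of the 38 windows and in 3.17% of all 32851. The E-box CACGTG, the core of the site bound by TFEB, was in 4 of the 38 windows (10.5%) and in 6.02% of all, namely those of Bnip3, Atg3, Atg5 and Atg7. In Bnip3 it lay at bases -108 to -103 from the start. The CLEAR element, a longer motif built on that E-box, was in 0 of the 38 and in 0.24% of all. The forkhead variant ATAAACA was searched after the windows had been read, and was in 3 of the 38 (7.89%) and in 4.16% of all. These were Ambra1, Atg4a and Gabarapl1, where it lay at bases -95 to -89. A match describes letters only, and these windows leave out introns and distant sites. The windows shown differed in base composition, with 72.4% G and C in Bnip3, 69.6% in Map1lc3b and 46.8% in Gabarapl1, against a median of 58.4% over the members' windows and 52.4% over all.

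Values below are scaled intensities of a gene's probe set of highest mean rank, unless another probe set is named, and ratios are log2 ratios against the oil array. With 1 array per group no test was possible. Higher and lower therefore describe readings, and a size rule of 2-fold is used for counts. As a technical yardstick, log2 ratios of probe sets of one gene differed with an SD of 0.49 at 24 h and 0.41 at 48 h over 5001 genes, which leaves out the spread between mice and arrays. Over the members alone this SD was 0.47 at 24 h and 0.53 at 48 h. Other scalings of the arrays moved the median of all genes from 0.04 to between -0.04 and 0.33 at 24 h, and from 0.01 to between -0.05 and 0.08 at 48 h. They changed the side of oil for 11 of the 37 members at 24 h, with log2 ratios of -0.26 to 0.08 (Ulk1, Zfyve1, Sqstm1, Becn1, Uvrag, Pik3r4, Atg4b, Atg10, Gabarapl2, Map1lc3a and Nbr1), and for 4 at 48 h, of -0.06 to 0.02 (Atg3, Atg4b, Nbr1 and Wipi1). Whether fewer cells or less RNA per cell lies behind a lower reading cannot be told apart in such pooled tissue.

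The member furthest below oil at 48 h belonged to the Atg8 family, whose members are the membrane-bound tags of the autophagosome. Gabarapl1 read 379.6 on oil, 268 after 24 h and 180.3 after 48 h of tamoxifen, 2.11-fold below oil at the later time. Its other kept probe set read 196, 124 and 97.8, so both probe sets were lowest at 48 h and in between at 24 h. Map1lc3b, which encodes LC3B, read 2324, 1529.6 and 1223, 1.52-fold and 1.90-fold below oil. Its other kept probe sets read 1373, 934 and 711, and 1239.9, 956 and 718, again in the same order. At 48 h the 3 probe sets of Map1lc3b gave log2 ratios of -0.93, -0.95 and -0.79, closer together than the yardstick.

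The other family members did not share this. Map1lc3a, encoding LC3A, gave 1722 with oil, 1808 after 24 h and 1831 after 48 h, and its other kept probe set 649, 903 and 965. All its readings with tamoxifen were above oil, with log2 ratios of 0.09 and 0.57 at 48 h. Gabarap read 812, 913 and 685, and Gabarapl2 624, 643 and 521. Both were slightly above oil at 24 h and slightly below it at 48 h, by -0.25 and -0.26, and a dim second probe set of Gabarapl2 went to 0.26. Under every scaling and probe set choice tried, the 48 h log2 ratio of Gabarapl1 lay from -1.14 to -0.997. That of Map1lc3b lay from -0.99 to -0.85, and that of Map1lc3a from 0.02 to 0.57. The other filters and floor tried could not move these ratios.

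**Figure D1:**
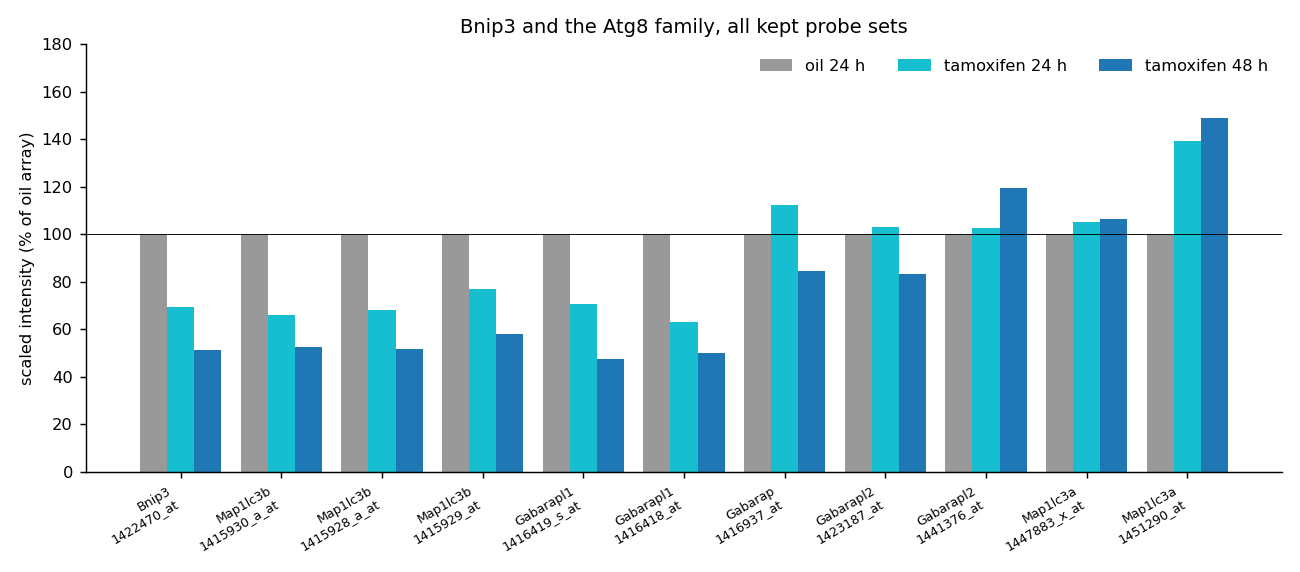
Scaled intensity of every kept probe set of Bnip3 and the Atg8 family as a percentage of its own oil array reading, for oil 24 h, tamoxifen 24 h and tamoxifen 48 h (1 array each, no error bars). The 6 probe sets of Bnip3, Map1lc3b and Gabarapl1 stand between 47.5% and 57.9% of oil at 48 h, and those of Gabarap, Gabarapl2 and Map1lc3a between 83.4% and 149%.

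Among the cargo receptors, Bnip3, an outer mitochondrial membrane protein that recruits the autophagosome to mitochondria, lay furthest below oil at 48 h. It gave 2396 with oil, 1661 after 24 h and 1234 after 48 h, 1.44-fold and 1.94-fold below oil, on its single probe set. Its close relative Bnip3l, also a mitophagy receptor, is on 3 probe sets shared with the pseudogene Bnip3l-ps, so the transcripts cannot be told apart and Bnip3l is in none of the counts. The brightest of them read 687.5, 567.7 and 431.7. All 3 were below oil at 48 h, with log2 ratios of -0.67, -0.53 and -0.38. The first and second lay beyond the yardstick, but the second was no further from oil than the members' own SD of 0.53. At 24 h the 3 probe sets gave -0.28, -0.27 and 0.05. Sqstm1, encoding p62, a receptor for ubiquitinated cargo, read 2444, 2076 and 1926. It too was lowest at 48 h, but the log2 ratio there was -0.34, within the yardstick. Nbr1, a receptor related to p62, read 529, 560.2 and 512, and its second probe set 144, 113 and 104. Fundc1, a mitophagy receptor of the outer membrane, read 245, 297 and 263. Its 3 kept probe sets were all above oil at both times, with log2 ratios of 0.27 to 0.45 at 24 h and 0.10 to 0.29 at 48 h. At 48 h the mitophagy receptors of the list thus lay on both sides of oil, Bnip3 and the shared Bnip3l probe sets below it and Fundc1 above it by less than the yardstick.

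Pink1, the kinase that marks damaged mitochondria, read 1337, 1625 and 1657, with the second probe set at 955, 1019.6 and 1632. Its probe sets were above oil at both times and differed at 48 h, with log2 ratios of 0.31 and 0.77. Tfeb, a transcription factor for lysosome and autophagy genes that is held inactive by mTORC1, read 159, 201 and 183. Both genes stood above oil by less than the yardstick on the probe sets of highest rank.

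In the ULK complex, which starts autophagosome formation, Rb1cc1 had the largest difference shared by its probe sets. Rb1cc1, encoding the scaffold FIP200, gave 378 with oil, 244 after 24 h and 207 after 48 h. Its second kept probe set read 138, 42.2 and 59.7, at log2 ratios of -1.71 and -1.21 where the first gave -0.63 and -0.87. Both were below oil at both times, but they ordered 24 h and 48 h differently. Ulk1, the kinase itself, read 170.1, 146 and 114, and its other probe set 31.7, 29.9 and 23.6. Its log2 ratios at 48 h were -0.57 and -0.43. Ulk2, the related kinase, did not follow: it read 389, 501 and 357, with all 3 kept probe sets above oil at 24 h and below it at 48 h, by -0.22 at most.

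Atg13, which links ULK kinases to FIP200, was lowest at 24 h. It read 79.6, 56.3 and 70.2, and its second probe set 51.4, 26.8 and 42.5. Ambra1, a scaffold that joins the ULK and PI3-kinase complexes, gave no settled direction. Its brighter probe set read 36.5, 72.9 and 69.6, just under 2-fold above oil at 24 h, while the other read 23.7, 9.66 and 13.8. These gave log2 ratios of 0.999 and -1.29 at 24 h and of 0.93 and -0.78 at 48 h.

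All 5 measured members of the list in the class III PI3-kinase complex were below oil at 48 h, where 49.4% of all genes were. Their median log2 ratio was -0.49, against 0.01 over all genes. Nrbf2, a gene of this complex outside the member list, was slightly above oil there, at 0.09. Pik3r4, the regulatory subunit VPS15, read 55.4, 50.2 and 26.7, so it stood near oil at 24 h and 2.08-fold below it at 48 h, on a single s_at probe set, a kind that can match related transcripts. Pik3c3, the catalytic subunit VPS34, read 109, 81.5 and 67.8, at log2 ratios of -0.42 and -0.69. Atg14, which directs the complex to autophagosomes, read 59.6, 69.3 and 42.3. Uvrag, its counterpart in the endosomal form, read 114, 99.4 and 101. Becn1, encoding the core subunit Beclin 1, read 428, 374 and 375, and a second probe set 272, 249.8 and 241. Those bright Becn1 probe sets were at -0.19 and -0.18 at 48 h, while a dim x_at probe set gave -1.27 and a dim at probe set 0.14. Pik3r4, Pik3c3 and Atg14 thus lay further from oil at 48 h than the yardstick, and Becn1 and Uvrag did not. Atg14 was, however, within the members' own SD of 0.53. Pik3r4, Pik3c3 and Atg14 have 1 probe set each, so their own spread between probe sets is not known. The quartiles of all genes at 48 h were -0.30 and 0.32.

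Genes that supply membrane to the growing autophagosome were mixed. Atg9a, a lipid scramblase on vesicles, read 231, 282 and 273, and Atg2a, a lipid transfer protein, 33.7, 45.5 and 46.7. Both were above oil at both times. Atg2b, its paralogue, read 41.0, 31.8 and 32.7 on one probe set and 26.0, 39.5 and 34.8 on the other, which lie on opposite sides of oil. Zfyve1, encoding the omegasome marker DFCP1, read 78.3, 65.4 and 57.2. Wipi2, which reads the PI3-kinase lipid and recruits Atg16l1, read 62.5, 46.3 and 48.6, with its second probe set above oil at 36.8, 53.6 and 40.5.

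Wipi1, another reader of that lipid, had 5 kept probe sets that did not agree on a direction. The brightest read 327, 228 and 332 and the next 134, 89.7 and 125, both lowest at 24 h. The dimmest of them read 10.8, 17.5 and 45.9, a log2 ratio of 2.08 at 48 h, the largest of any kept member probe set. Over its 5 probe sets the 48 h ratios ran from -0.61 to 2.08.

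The conjugation enzymes, which process Atg8 proteins and attach them to lipid, lay on both sides of oil. Of 10 genes, 6 were above oil and 4 below it at each time, so 40% were below, against 46% of all genes at 24 h and 49.4% at 48 h. Their median log2 ratio was 0.24 at 24 h and 0.29 at 48 h, against 0.04 and 0.01 over all genes. Atg12, the ubiquitin-like partner of Atg5, read 109, 153 and 164, and its second probe set 64.9, 107 and 115. Both probe sets were above oil at both times, by 0.59 and 0.83 at 48 h. Atg5 read 101, 173 and 124, but its other kept probe sets were at -0.08 and 0.23 at 24 h, against 0.78 for the first. Atg16l1, which completes the Atg12 and Atg5 complex, read 86.3, 126 and 110.3. Atg10, the enzyme that joins Atg12 to Atg5, read 66.7, 63.8 and 103, near oil at 24 h and 1.55-fold above it at 48 h.

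Among the Atg4 proteases, which trim Atg8 proteins, Atg4d read 148, 235 and 211, 1.59-fold and 1.43-fold above oil. Atg4a read 219, 265 and 269. Atg4b, the main LC3 protease, read 97.6, 91.9 and 95.8, within 1.5-fold of oil on both kept probe sets. Atg4c read 79.7, 45.9 and 74.5, and Atg7, the enzyme that activates Atg8 proteins and Atg12, read 53.5, 32.2 and 48.8. Both were low on the 24 h array alone, by 1.74-fold and 1.66-fold against oil. For Atg7, dimmer probe sets left out by the rank rule went the other way at 24 h, with log2 ratios of 1.76 and 1.59. Another gave 0.48, which is only a bound because its oil reading was at the floor of 4.05. Atg3, the enzyme that transfers Atg8 proteins to lipid, read 384, 441 and 369.

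**Figure D2:**
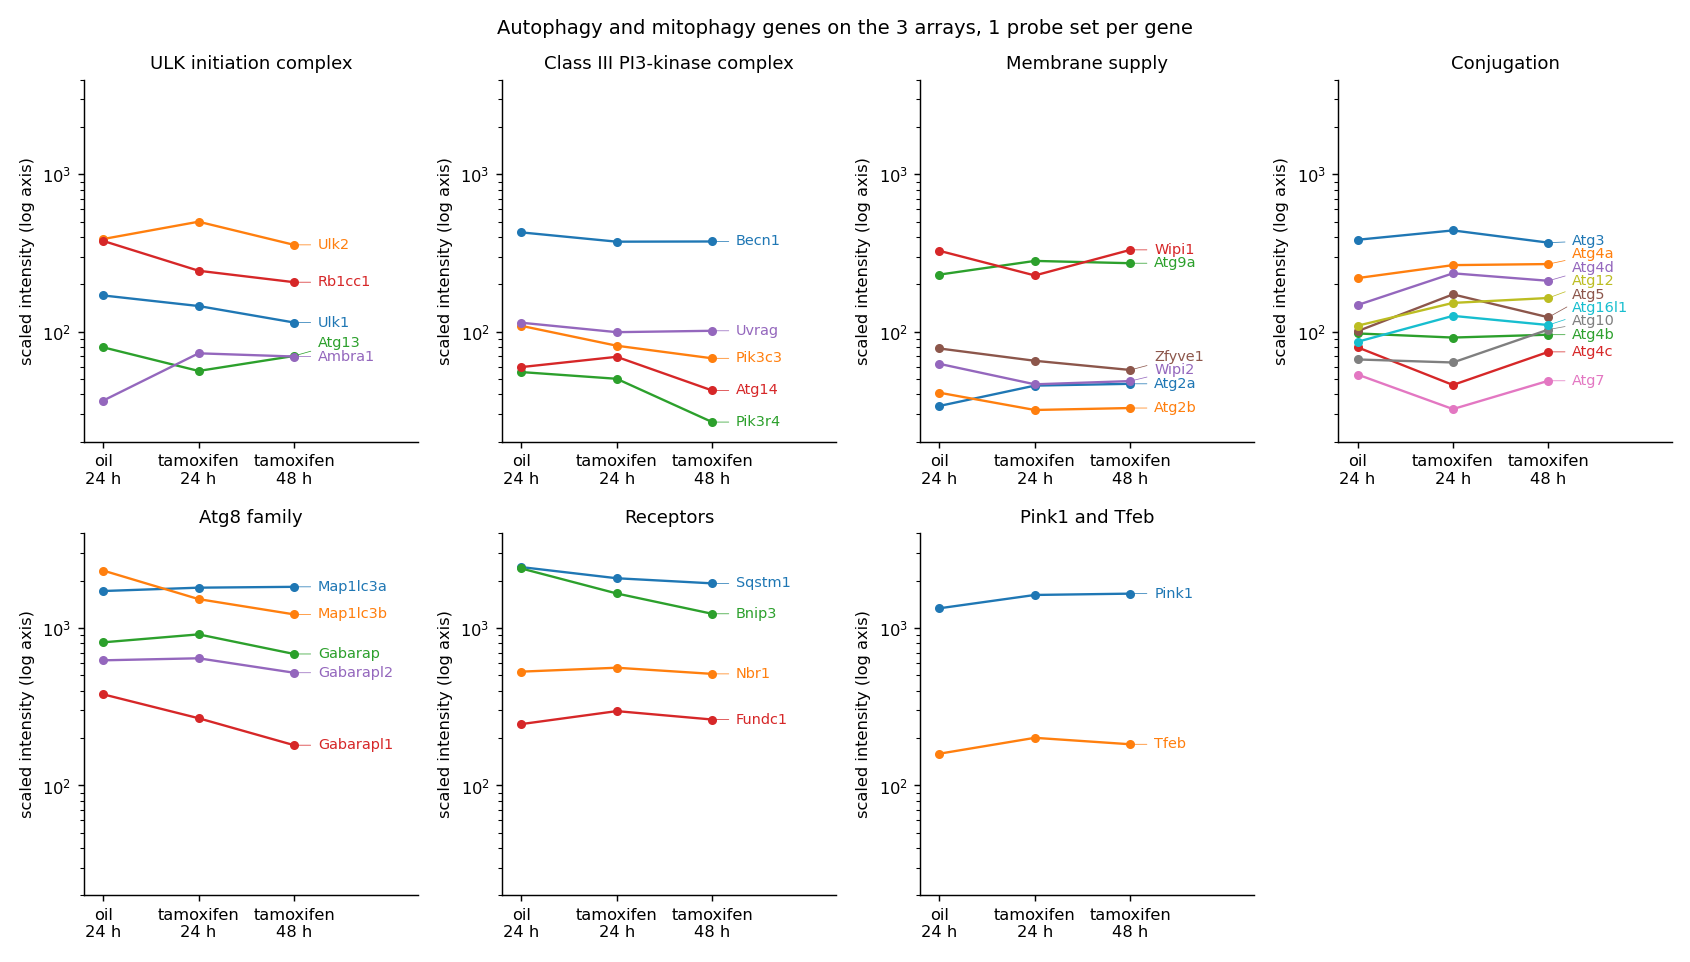
Scaled intensity (log axis) of each of the 37 genes on the oil 24 h, tamoxifen 24 h and tamoxifen 48 h arrays, in panels by role; a line joins the readings of 1 probe set and has no error bar. Gabarapl1, Map1lc3b, Bnip3, Rb1cc1 and Pik3c3 are among 9 genes (24.3%) that step down from oil through 24 h to 48 h, against 20.6% of all genes. In 5 (13.5%) the readings step up, against 21.5%. Atg12, Atg4d and Pink1 lie above oil at both times. Levels of different genes should not be compared.

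**Figure D3:**
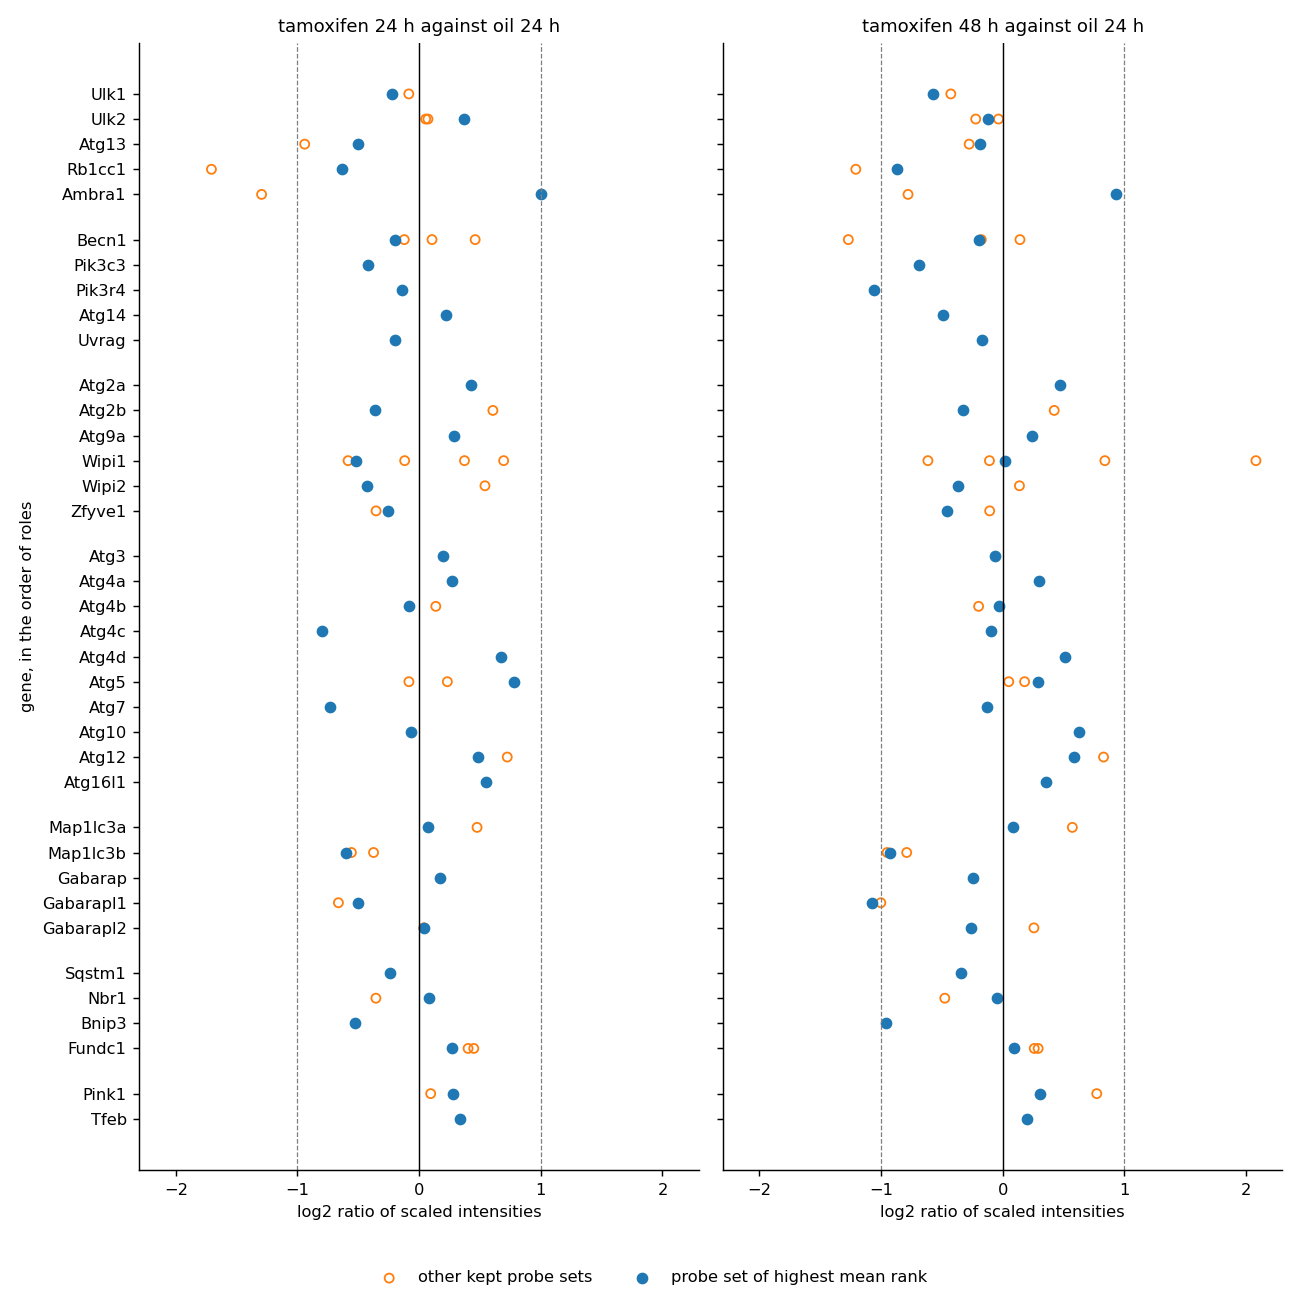
Log2 ratios against oil at 24 h and 48 h for every kept probe set of the 37 genes, with the probe set of highest mean rank filled and the others open; dashed lines mark 2-fold. The probe sets of Map1lc3b, Gabarapl1 and Atg12 cluster, whereas those of Ambra1, Wipi1 and Becn1 lie on both sides of 0 at 48 h.

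Counted over the machinery, 0 of 37 genes were 2-fold lower and 0 were 2-fold higher at 24 h, where 2.48% and 2.35% of all 11092 genes were. By a rule of 1.5-fold, 4 were lower (Rb1cc1, Atg4c, Atg7 and Map1lc3b) and 3 higher (Ambra1, Atg4d and Atg5), against 9.02% and 9.57% of all genes. Ratios below 0 were found for 19 of 37, against 46% of all. The median was -0.06, and 0.04 over all genes. As shares, 10.8% were 1.5-fold lower, 8.11% were 1.5-fold higher and 51.4% were below 0, near those of all genes.

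At 48 h, 2 of 37 genes were 2-fold lower (Gabarapl1 and Pik3r4) and 0 were 2-fold higher, against 2.71% and 3.72% of all genes. By 1.5-fold, 6 were lower (Rb1cc1, Pik3c3, Pik3r4, Map1lc3b, Gabarapl1 and Bnip3) and 3 higher (Ambra1, Atg10 and Atg12), against 10.7% and 11.7%. Ratios below 0 numbered 23 of 37, against 49.4% of all. As shares, 5.41% of the members were 2-fold lower, 16.2% were 1.5-fold lower, 8.11% were 1.5-fold higher and 62.2% were below 0. The median was -0.12, and 0.01 over all genes. In the order of all 11092 genes from the lowest ratio at 48 h, Gabarapl1 was at place 244, Pik3r4 at 268, Bnip3 at 349, Map1lc3b at 392, Rb1cc1 at 485 and Pik3c3 at 876. The members were chosen with earlier results known, so these places are a description.

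Over probe sets, 2 of the 66 kept were 2-fold lower at 24 h (1 each of Rb1cc1 and Ambra1) and 0 were 2-fold higher, against 4.19% and 2.45% of all kept probe sets with 1 gene. At 48 h, 5 were lower and 1, of Wipi1, was higher, against 3.1% and 3.91%. The lower ones were both probe sets of Gabarapl1 and 1 each of Rb1cc1, Becn1 and Pik3r4. Of 20 genes with several kept probe sets, all probe sets lay on the same side of oil in 12 at 24 h and 14 at 48 h, which is 60% and 70%, against 49.4% and 56.2% of all such genes.

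**Figure D4:**
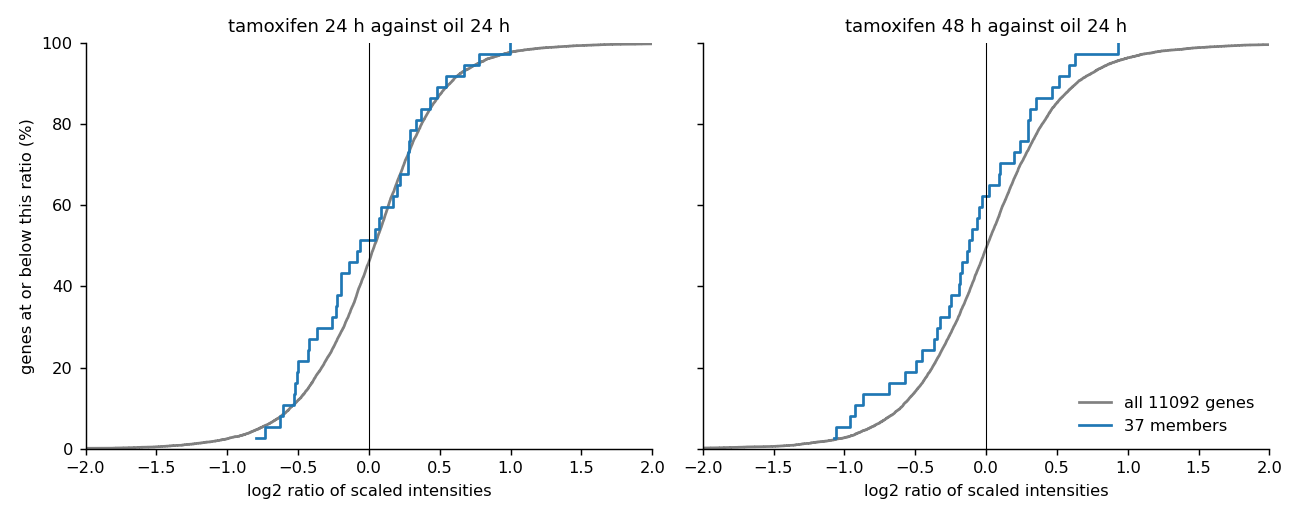
Share of genes (%) at or below each log2 ratio, for the 37 members and for all 11092 genes, at 24 h and 48 h against oil. The members' line lies left of that of all genes over most of its length at 48 h, with medians of -0.12 and 0.01.

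Both ratios against oil share the single oil array. Between the tamoxifen arrays themselves, 0 of 37 genes were 2-fold lower and 0 higher at 48 h than at 24 h, against 1.42% and 1.8% of all genes, and 22 were below 0, against 53.1%. The median was -0.13, and -0.02 over all genes. Gabarapl1 was lower at 48 h than at 24 h by a log2 ratio of -0.57, Bnip3 by -0.43 and Map1lc3b by -0.32, with the other probe sets of Gabarapl1 and Map1lc3b from -0.41 to -0.34. Pik3r4 and Atg14 gave -0.91 and -0.71. Atg4c, Atg10 and Atg7, at 0.70, 0.69 and 0.60, were the members that read higher at 48 h by over 1.5-fold. They made up 8.11% of the members, near the 6.91% of all genes. Lower by 1.5-fold were 2 members, Pik3r4 and Atg14, or 5.41% against 5.84% of all genes.

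Of 74 further genes of the pathway, listed apart from the members, 69 had a kept probe set. On probe sets of highest mean rank, none was 2-fold higher against oil, where 2.35% of all genes were at 24 h and 3.72% at 48 h. At each time 1 gene (1.45%) was 2-fold lower, against 2.48% and 2.71% of all genes. At 48 h this was Trp53inp1, which encodes a stress protein that binds Atg8 proteins, at 265, 179 and 107, and its other probe set gave a log2 ratio of -0.93 there. At 24 h it was Flcn, encoding folliculin, a regulator of mTORC1 and TFE factors, at 253, 124 and 187, and its other probe set gave -0.16. The medians were -0.01 at both times. Other kept probe sets of these further genes passed 2-fold on both sides of oil. At 48 h they included those of Mul1 at 1.86, Lamtor1 at 1.13 and Phb2 at 1.03. On the lower side they included those of Tax1bp1 at -2.19, Fnip1 at -1.45 and Sesn1 at -1.16. Among the brightest of each group, Vmp1, a scramblase needed for autophagosome formation, read 574, 1053 and 712. Retreg1, a receptor for autophagy of the endoplasmic reticulum, read 2382, 1678 and 1723, and its other probe set was also below oil at both times. Phb2, a mitophagy receptor of the inner membrane, read 537, 756 and 751. Rab7, the small GTPase of late endosomes, read 1459, 2084 and 1719. Lamtor1, which anchors mTORC1 to the lysosome, read 1385, 1814 and 1771, whereas Rheb, the GTPase that activates mTORC1, read 1560.5, 1534 and 1575. Nrbf2, of the PI3-kinase complex, read 298, 271 and 318, and Fyco1, an adaptor for autophagosome transport, 785, 752 and 776. The upstream list, the fusion machinery and the receptors thus held readings on both sides of oil.

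The tissue label was checked on 12 skeletal muscle markers, all kept, whose summed intensity was 96821, 94119 and 96300.2. None was 2-fold different, although slow myosin Myh7 was at -0.76 at 48 h. Markers of other cells differed between the arrays too. The summed level of 10 macrophage markers was 2073, 2032 and 1706, of 6 endothelial markers 1144, 1026 and 822, and of 6 neutrophil markers 185, 111 and 105. It was 13994, 12519.8 and 12834 for 6 fibroblast, 684, 848 and 559.6 for 4 adipocyte, 54.6, 48.1 and 48.0 for 3 erythroid and 2294, 2235 and 2067 for 4 Schwann cell markers. The macrophage, endothelial and Schwann cell sums were lowest at 48 h, the adipocyte sum was highest at 24 h and lowest at 48 h, the neutrophil and erythroid sums were lower than on oil by 24 h, and the fibroblast sum was lowest at 24 h. Single markers differed by more than the sums. At 48 h the log2 ratio was -1.70 for S100a8 and -2.03 for S100a9, both of neutrophils, while the neutrophil markers Elane and Camp, at the floor on the other arrays, read 20.9 and 14.4. It was -1.07 for Cd163 of macrophages, -0.996 for Vwf of endothelium, -1.03 for Retn of adipocytes and 1.18 for Col1a1 of fibroblasts, whose second probe set gave 0.13. In several lists the kept markers lay on both sides of oil. All 4 kept Schwann cell markers and all 3 kept neutrophil markers were below oil at 48 h. Above oil at 48 h were 4 of 10 macrophage markers, with Cd68 at 0.58, and 1 of 6 endothelial markers, Kdr at 0.47. So were 1 of 3 kept adipocyte markers, while 4 of 6 fibroblast markers were below oil. Of these lists only the neutrophil list (at most 3 genes on an array), the adipocyte list (1) and the erythroid list (1) had members at the floor. Their part in the lower readings of Gabarapl1, Map1lc3b and Bnip3 was not tested. The ratio of 3′ to 5′ probe sets of beta-actin was 0.976, 0.951 and 1.10, and that of Gapdh 0.846, 0.867 and 0.826, and the part of RNA quality was not tested either. Log2 values of kept probe sets correlated between arrays at r of 0.954 to 0.967.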

How the data were processed

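Gastrocnemius RNA, pooled from 3 to 4 mice per array per the labels, was read on 3 arrays. The deposited values are linear intensities per probe set, made by the authors by a summary and scaling method not given in the sources used here. Control probe sets (64 of 45101) were set aside. Names came from the platform annotation, with symbols updated through Entrez identifiers to RefSeq (GRCm38.p6). Probe sets with a mean percentile rank of 0.5 or more were kept (21804). Arrays were scaled to one median over these, with factors of 1.01 (oil), 0.944 (tamoxifen 24 h) and 1.05 (tamoxifen 48 h), floored at 4.05 (the 25th percentile) and taken to log2. Each gene was represented by the kept probe set that ranked highest (11092 genes). No test was made, since each group is 1 array, and that number limits the precision.

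The members and lists were chosen with earlier results of these data known. All members with a kept probe set are named. Of other pathway genes, those 2-fold different from oil and the 2 brightest of each list are named. Some with another kept probe set past 2-fold are named too. Alternatives covered scaling, filter, floor and choice of probe set. The calculation was tested on simulated data. Python 3.11.15 with pandas 2.3.3 and numpy 2.4.6 was used.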

Additional observations from a re-analysis of the deposited data

How the results depend on the processing

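Of 10 alternatives, 8 were planned and 2 (scaling on spike-in probe sets, and leaving out s_at and x_at probe sets) were chosen after seeing the data. The members' median at 48 h against oil stayed below 0 under all 10, with -0.046 when arrays were scaled over all probe sets, where 0 of the 37 members were 2-fold lower and 1 was 2-fold higher. At 24 h against oil the median turned to 0.030 unscaled, 0.23 scaled over all probe sets, 0.043 at rank 0.75 or more and 0.025 with the median of kept probe sets, and was -0.15 scaled on spike-ins. The sign at 24 h is thus not settled. Set against the median of all genes under the same setting, the members' median lay between -0.11 and 0.0032 at 24 h and between -0.14 and -0.11 at 48 h. Scaled over all probe sets, 11 members were below 0 at 24 h and 2 were 2-fold higher; 1 was 2-fold higher unscaled and 1 by quantile normalization, and 1 was 2-fold lower with the median of kept probe sets. At 48 h, 1 member was 2-fold lower at rank 0.75 or more, where 29 genes were left, and 1 without s_at and x_at probe sets, where Pik3r4 had no probe set. For tamoxifen 48 h against 24 h the median was -0.29 unscaled and -0.34 scaled over all probe sets, each with 1 member 2-fold lower. Of 1083 single-gene values under alternatives, 7 moved by more than the SD between probe sets of one gene, and 0 of the 2-fold differences reversed. The other filters and floor could not move a member's value, because its probe set of highest mean rank stayed the same. Scalings other than quantile normalization shifted all members alike. These counts are therefore no measure of robustness. No paired analysis was possible because each group is 1 array. No replicate could be left out for the same reason, and signal over background limits the dim probe sets.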
